A study of Mus musculus with 15 samples.

Results

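The renin-angiotensin system was examined in mouse kidney through 7 genes, Agt, Ren1, Ace, Agtr1a, Mme, Enpep and Atp6ap2. They were chosen by symbol, as the rows of the deposited expression table whose Ensembl identifiers carry these names in GENCODE M21 on GRCm38, and they are 7 of the 54532 genes in the table. RNA from 15 kidneys was sequenced, 5 in each of 3 groups, and every value is in FPKM (fragments on a gene, corrected for gene length and for the fragments of the library). All animals were male C57BL/6 mice, 8 weeks old at the start and followed for 8 weeks. Mice of the control group (C) ate normal chow and were gavaged with the vehicle, 1% DMSO in saline. Mice of the CKD model group (M) were given the same vehicle and chow with 0.25% adenine for 4 weeks, an agent that injures the tubules, then standard chow to the end. The AA group received the adenine diet as the M group did, and 30 mg/kg of asiatic acid, a plant triterpenoid, by gavage each day for the whole study. The comparisons ask which of these genes differ in the diseased kidney (M vs. C), which differ with treatment (AA vs. M), and which still differ from healthy kidney in treated mice (AA vs. C). No gene was deleted or added in any group.

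The system is a cascade of a substrate, enzymes and receptors. Agt encodes angiotensinogen, the substrate, which is made chiefly in liver and also in the proximal tubule of the kidney. Renin, from Ren1, is released by the juxtaglomerular cells of the afferent arteriole and cuts angiotensinogen to angiotensin I, and angiotensin-converting enzyme, from Ace, trims that peptide to angiotensin II. Agtr1a encodes the main receptor through which angiotensin II constricts vessels and raises sodium uptake in rodents. Mme (neprilysin) and Enpep (aminopeptidase A) are membrane peptidases that degrade angiotensin peptides, and Atp6ap2, the (pro)renin receptor, also serves as an accessory subunit of the vacuolar proton pump. In the kidney Ace, Mme and Enpep all sit on the brush border of the proximal tubule, and Ace is also found on endothelium.

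The genes lie on GRCm38 at the following places, each given as the whole annotated gene. Agt (ENSMUSG00000031980) spans 124556534 to 124569706 on the minus strand of chromosome 8, and Ren1 (ENSMUSG00000070645) spans 133350510 to 133360325 on the plus strand of chromosome 1. Ace (ENSMUSG00000020681) occupies 105967945 to 105989964 on the plus strand of chromosome 11. Agtr1a (ENSMUSG00000049115) runs from 30336441 to 30382867 on the plus strand of chromosome 13. Both peptidase genes are on chromosome 3, Mme (ENSMUSG00000027820) at 63241537 to 63386030 on the plus strand and Enpep (ENSMUSG00000028024) at 129269175 to 129332720 on the minus strand. Atp6ap2 (ENSMUSG00000031007) is X-linked, at 12587801 to 12617049 on the plus strand of chromosome X.

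The promoters of Agt and Ace are shown because these were the members that passed the test in any comparison. They were taken from RefSeq on GRCm38.p6 and are printed on the gene's own strand, from upstream to the base before the first annotated exon. Capitals mark 3 short promoter elements searched on both strands, the TATA box (TATAAA), the GC box (GGGCGG) and the CCAAT box (CCAAT).
Agt, chr8:124569707-124569956, minus strand: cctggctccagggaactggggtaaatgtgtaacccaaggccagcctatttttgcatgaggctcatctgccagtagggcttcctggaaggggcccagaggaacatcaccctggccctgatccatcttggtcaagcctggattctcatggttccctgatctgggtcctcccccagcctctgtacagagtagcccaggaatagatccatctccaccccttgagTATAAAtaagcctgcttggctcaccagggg
Ace, chr11:105967698-105967944, plus strand: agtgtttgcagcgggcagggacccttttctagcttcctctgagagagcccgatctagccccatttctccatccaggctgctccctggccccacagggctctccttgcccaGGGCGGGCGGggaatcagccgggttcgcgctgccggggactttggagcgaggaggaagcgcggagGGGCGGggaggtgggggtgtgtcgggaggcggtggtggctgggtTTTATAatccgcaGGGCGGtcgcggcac
The Agt window held 1 TATA box, which began 30 bases before the RefSeq start, and neither of the other elements. The Ace window held a TATA box on the opposite strand 31 bases before its start and 4 GC boxes, beginning 140, 136, 75 and 18 bases before it, the first 2 of which overlap. The TATA letters were present in 12.4% of 32851 such windows of 250 bases, the GC box in 32.7% and the CCAAT box in 33.8%. Among the 9 windows of 6 members these elements occurred in 4, 5 and 5 windows respectively, and Agtr1a had no entry. A match describes letters only, and no binding was measured here.

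Libraries differed in depth and make-up along with the groups. Between 13647020 and 28884427 reads per library were recovered from the steps between FPKM values, with a factor of 2 open because a step could be a read or a read pair. Reads outside the mitochondrial genome numbered 6951358 to 13576597 in C, 2077628 to 7142897 in M and 2225764 to 4271191 in AA libraries. Mitochondrial genes took 53.0 to 62.5% of the reads of C libraries, 64.0 to 86.8% in M and 69.2 to 87.2% in AA libraries. M mice 1 to 3 stood apart, with 10068 to 12222 genes above 0 where the other 12 libraries had 18695 to 25460, and the labels name no batch that separates them. Xist, which is silent in male cells, was at 2.55 FPKM in M mouse 2 and 1.45 in M mouse 3, and at 0.119 or less in the other libraries. Gapdh ranged from 2.63 to 12.9 FPKM in C, from 0 to 7.21 in M and from 0 to 0.0967 in AA kidneys. By the limma test and limits given for Agt, 0 of 7 housekeeping genes were called in M vs. C (1.38% of all genes). In AA vs. M 0 were called (12.8%), and in AA vs. C 2, 1 higher and 1 lower (19.8%). Even Gapdh was listed at 0 in 3 libraries, M mouse 1 and AA mice 1 and 2, so a 0 here is a listed value and is not evidence of absence. Some results that involve the M group are therefore given with M mice 4 and 5 alone and with M mice 1 to 3 alone as well. These are Agt, Ren1, Enpep and Atp6ap2 in M vs. C, and Ren1 and Mme in AA vs. M. Other single-gene results that involve the M group, among them those of Ace, Agtr1a, Klk1, Hsd11b2 and Adora1, are not given with both subsets.

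The labelled tissue was checked with marker genes, none of which was at 0 in all C libraries for the proximal tubule, podocyte, endothelial, mural or distal lists. Summed FPKM of the 15 proximal tubule markers was 647 to 3516 in C kidneys, 69.7 to 252 in M kidneys and 194 to 242 in AA kidneys. By the limma test and limits given for Agt, 9 of the 15 passed for M vs. C, all lower than in the C group (1.11% of all genes called lower). For AA vs. C 11 passed, again all lower (9.61% called lower). Between AA and M kidneys 0 of the 15 were called (12.8% of all genes), and 2 had an unadjusted p under 0.05 (32.1%). Genes of the adrenal cortex summed to 2.56 FPKM at most in any library. In whole kidney, fewer cells of a type and less RNA per cell cannot be told apart.

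In control kidneys the substrate was the most abundant of the 7 genes. Median FPKM in the C group was 9.01 for Agt, 7.47 for Agtr1a, 6.92 for Ren1, 5.89 for Atp6ap2, 1.76 for Enpep, 1.75 for Ace and 0.823 for Mme. The first 4 overlapped one another over the 5 mice, Enpep and Ace also overlapped, and Mme lay below every value of the other members. Of the 22186 genes with a median above 0 in this group, Agt was above 93.7% and Mme above 51.7%. In the M group the order was led by Atp6ap2, at a median of 14.0 FPKM, and Agtr1a, at 6.95, and it ended with Ace at 0.400. Agtr1a came first in the AA group, at 11.0 FPKM, and Agt, at 0.719, was next to last, above Ace at 0.414.

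**Figure D1:**
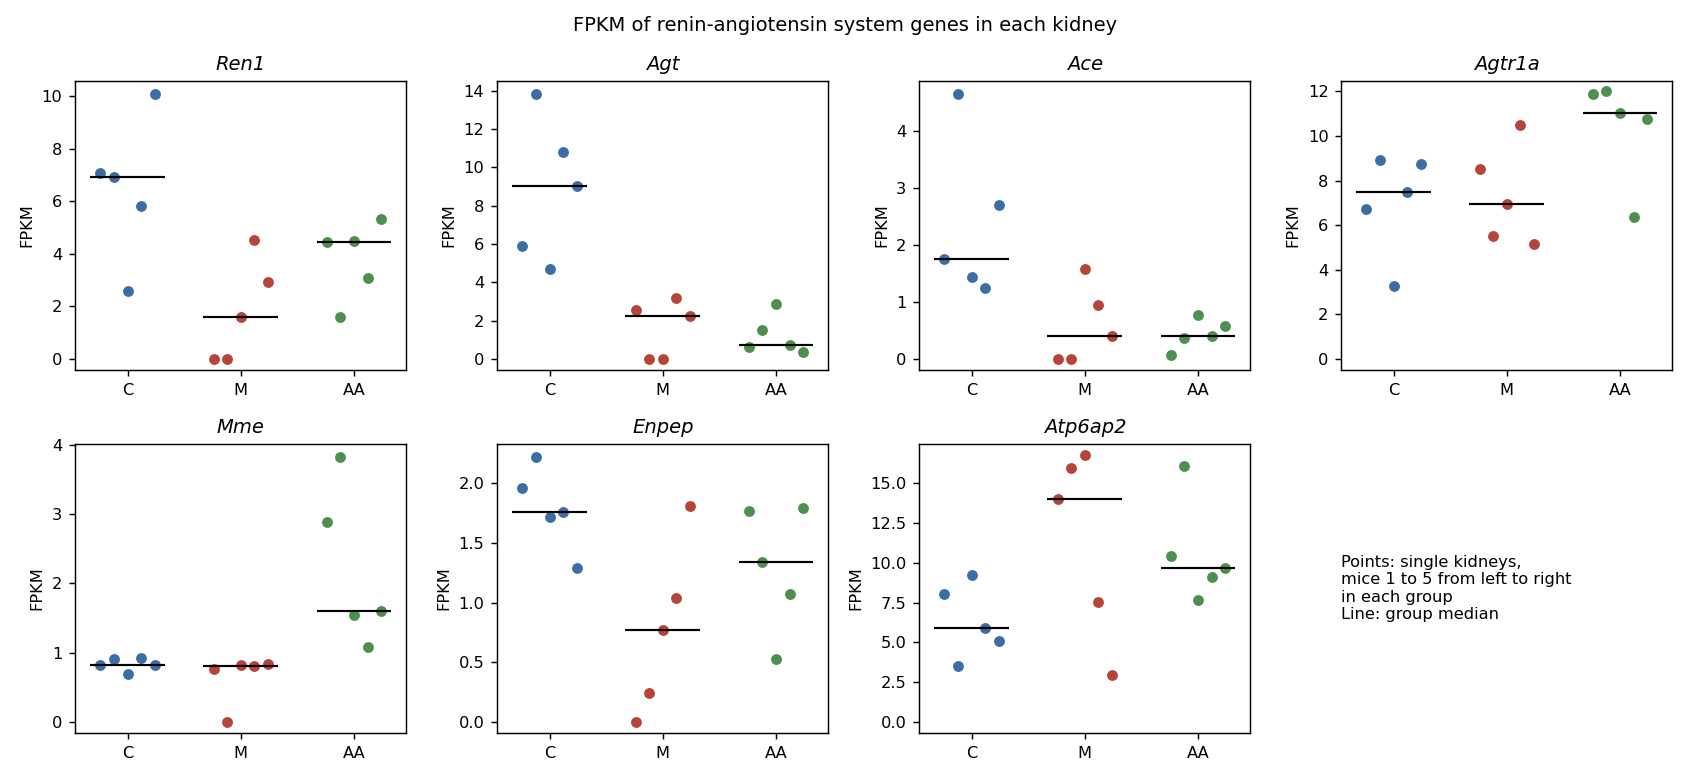
FPKM of each of the 7 genes in every kidney, by group (C, M and AA, 5 kidneys each, mice 1 to 5 from left to right), on a linear axis that differs between panels. Points are single kidneys and lines are group medians. The C values of Agt, 4.71 to 13.8, all lie above the M and AA values, and the Mme values of the AA group, 1.08 to 3.82, all lie above those of both other groups.

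Agt was lower in the kidneys of both adenine-fed groups than in control kidneys, by more than the spread between mice. Its FPKM was 5.89, 13.8, 4.71, 10.8 and 9.01 in C mice 1 to 5. In M mice 1 to 5 it was 2.55, 0, 0, 3.21 and 2.24. AA mice 1 to 5 had 0.621, 1.52, 2.89, 0.719 and 0.394. The lowest control kidney was thus above the highest of either other group, and the M and AA values overlapped. Between 358 and 1050 recovered reads stood behind the control values, 0 to 178 behind the M values and 12 to 82 behind the AA values. Differences were tested with limma on log2(FPKM + 1), and a gene was called when its Benjamini-Hochberg adjusted p over all genes tested did not exceed 0.05 and it had moved by 1 or more on the log2 scale, up or down. Between C and M kidneys Agt fell by 2.09 on this scale (standard error 0.47, 95% confidence interval −3.11 to −1.08, limma adjusted p = 0.0470). The fall in AA vs. C was −2.16 as a log2 fold change (interval −2.89 to −1.43, standard error 0.34, limma adjusted p = 0.000923). Between the AA and M groups the log2 fold change was −0.069 (interval −1.07 to 0.94, limma adjusted p = 0.941). Because 1 is added to every FPKM, these values understate the change of genes as low as this one.

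The M vs. C call for Agt was close to the threshold, depended on single kidneys and was kept in 9 of 16 other settings. It was lost when any one of C mice 1, 2, 4 or 5 or M mice 1, 2 or 3 was left out, with log2 fold changes of −2.33 to −1.82 over all 10 such fits and a limma adjusted p of up to 0.128. Against M mice 4 and 5 alone the log2 fold change was −1.33 (limma adjusted p = 0.215), and with M mice 1 to 3 alone it was −2.60 (limma adjusted p = 0.00436). The AA vs. C call was kept in all 10 fits without 1 library and in all 14 other settings, with log2 fold changes of −4.05 to −1.99.

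Ren1 values in the M group spread from 0 into the range of the controls, and no comparison passed with FPKM as deposited and all libraries used. C57BL/6 mice carry Ren1 as their sole renin gene. C mice 1 to 5 had 7.08, 6.92, 2.57, 5.81 and 10.1 FPKM. M mice 1 to 5 had 0, 0, 1.60, 4.53 and 2.94. The AA mice had 4.43, 1.61, 4.50, 3.08 and 5.32. M mice 1 and 2, 2 of the libraries with few genes, were both listed at 0, where 1 recovered read would have been worth 0.0520 and 0.0578 FPKM, and the other 3 M values lay partly among the controls. Ren1 differed by −1.65 in M vs. C (standard error 0.50, interval −2.74 to −0.56, limma adjusted p = 0.132). The AA vs. M difference was 1.03 (standard error 0.49, interval −0.013 to 2.07, limma adjusted p = 0.161), and AA vs. C gave −0.62 (standard error 0.33, interval −1.33 to 0.091, limma adjusted p = 0.155). The differences that involve the M group moved with the M mice used. With M mice 1 to 3 alone they were −2.36 and 1.73 (limma adjusted p = 0.00453 and 0.00877), and with M mice 4 and 5 alone they were −0.59 and −0.028 (limma adjusted p = 0.663 and 0.972). Ren1 was also called lower with TPM and with voom on recovered reads, at −2.53 and −4.60 in M vs. C (limma adjusted p = 0.0290 and 0.0412) and −1.59 and −1.70 in AA vs. C (limma adjusted p = 0.00586 and 0.0147). A list of 8 genes of juxtaglomerular, mural and smooth muscle cells had 0 calls for M vs. C (1.38% of all genes). There 2 had an unadjusted p under 0.05 (16.5%). For AA vs. M 1 was called, higher (12.8% of all genes). AA vs. C gave 2 calls, 1 higher and 1 lower (19.8%), with 4 genes higher and 4 lower by sign. Their summed FPKM was 42.9 to 99.9 in C kidneys, 25.2 to 109 in M kidneys and 62.0 to 96.7 in AA kidneys. This sum hides opposite differences. Median FPKM by group (C, M, AA) was 17.7, 16.3 and 39.1 for Pdgfrb and 10.4, 0.363 and 1.07 for Myh11.

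Ace was lower in the AA group than in control kidneys. Its FPKM was 1.75, 4.65, 1.44, 1.25 and 2.71 in C mice 1 to 5. M mice 1 to 5 were at 0, 0, 1.57, 0.948 and 0.400. The AA mice had 0.0694, 0.377, 0.781, 0.414 and 0.587, all below the lowest control, while M mouse 3 lay among the controls. The AA vs. C log2 fold change was −1.15 (standard error 0.27, interval −1.74 to −0.57, limma adjusted p = 0.00694). Leaving out C mouse 2, the control with the highest value, reduced it to −0.94 (limma adjusted p = 0.0117), which is under the fold limit, and Ace was called in the other 9 fits without 1 library and in all 14 other settings. The M vs. C log2 fold change was −1.10 (standard error 0.36, interval −1.88 to −0.32, limma adjusted p = 0.159), and the AA vs. M value was −0.051 (interval −0.64 to 0.53, limma adjusted p = 0.923). In M vs. C Ace was called lower in 2 of 16 other settings and in 0 of 10 fits without 1 library. Its M vs. C value over all these was −4.87 to −0.74. The AA values rest on 5 to 62 recovered reads. Exons of Ace share 295 bases (5.58% of its exon length) with Gm11651, an antisense gene, and as the counting is not stated to have used strand, reads from these bases cannot be assigned to either gene. A list of 6 endothelial genes had 0 calls in any of the 3 comparisons (by limma, with 1 at an unadjusted p under 0.05 in M vs. C and 0 in the other 2). Of all genes, 1.38% were called in M vs. C, 12.8% in AA vs. M and 19.8% in AA vs. C.

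Over the 7 members the calls were few in every comparison. For M vs. C 1 of 7 was called, Agt, against 1.38% of 21153 genes tested (1.11% lower), and 4 of 7 had an unadjusted p under 0.05 (16.5% of all genes). In AA vs. M 0 of 7 were called and 1, Mme, had an unadjusted p under 0.05, where 12.8% of 19798 genes were called and 32.1% had such a p. limma voom on the recovered reads also called 0 of 7 there (8.55% of all genes). For AA vs. C 2 of 7 were called, Agt and Ace, both lower, against 19.8% of 21898 genes (9.61% lower), and 4 of 7 had an unadjusted p under 0.05 (46.8% of all genes). Groups did not overlap for 1 of 7 members in M vs. C (4.72% of all genes), 1 of 7 in AA vs. M (13.2%) and 3 of 7 in AA vs. C (24%). The median log2 fold change of the members was −0.74 in M vs. C (−0.12 over all genes tested), 0.44 in AA vs. M (0.17) and −0.30 in AA vs. C (0.09). All 7 members passed the filter on low values in every comparison. The 3 comparisons share their groups, so their values are not independent of one another.

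**Figure D2:**
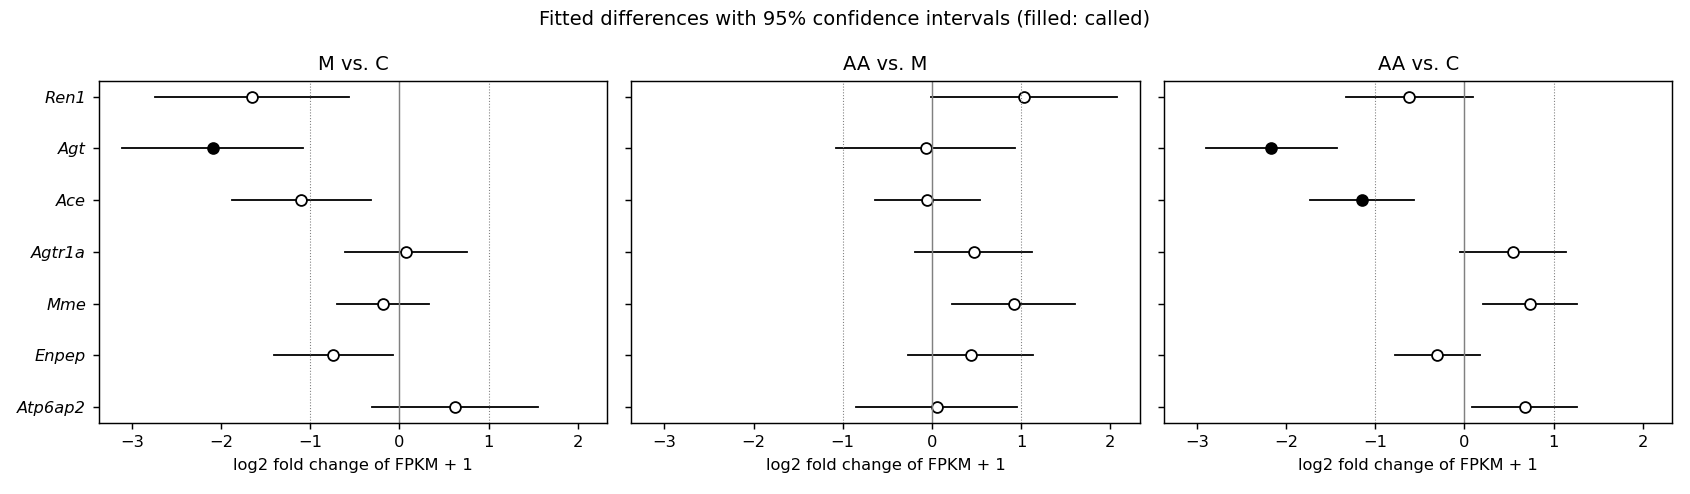
Log2 fold change of FPKM + 1 for the 7 genes, 1 panel per comparison, with 95% confidence intervals from limma (5 kidneys per group). Filled points were called (adjusted p not above 0.05 and a change reaching 1, the dotted lines). Agt was called in M vs. C and AA vs. C and Ace in AA vs. C, and no gene was called in AA vs. M.

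For the receptor gene Agtr1a no difference was resolved between groups. C mice 1 to 5 had 6.71, 8.92, 3.26, 7.47 and 8.74 FPKM. M mice 1 to 5 had 8.51, 5.50, 6.95, 10.5 and 5.15, and the AA mice had 11.9, 12.0, 11.0, 6.35 and 10.8. In the AA group 4 of 5 kidneys were above every C and M value, and AA mouse 4 lay among the C and M values. The log2 fold changes were 0.07 in M vs. C (interval −0.61 to 0.76, limma adjusted p = 0.914), 0.47 in AA vs. M (interval −0.20 to 1.13, limma adjusted p = 0.322) and 0.54 in AA vs. C (interval −0.055 to 1.14, limma adjusted p = 0.139). Their direction rested on the scale used, since with all libraries brought to 1 common total (TPM) the M vs. C value was −0.84 and the AA vs. C value −0.46. The other angiotensin II receptor genes, Agtr1b and Agtr2, were listed at 0 in all 15 libraries (they are named here after their values were seen).

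The 2 angiotensin-degrading peptidases differed in their pattern across groups. Mme was at 0.817, 0.903, 0.687, 0.916 and 0.823 FPKM in C mice 1 to 5. In the M mice it was at 0.762, 0, 0.817, 0.809 and 0.841. The AA mice had 2.89, 3.82, 1.54, 1.08 and 1.60, and each was above every kidney of the C and M groups. The AA vs. M log2 fold change was 0.92 (standard error 0.32, interval 0.23 to 1.61, limma adjusted p = 0.0628), and with M mice 4 and 5 alone it was 0.73 (limma adjusted p = 0.236). With M mice 1 to 3 alone it was 1.04 (limma adjusted p = 0.0487) and Mme was called. The AA vs. C value was 0.73 (standard error 0.24, interval 0.21 to 1.26, limma adjusted p = 0.0335), which passed on p, as 35.9% of all genes did there, and was under the fold limit. With pseudocounts of 0.1 and 0.01 it was 1.16 and 1.24 (limma adjusted p = 0.0304 and 0.0350), and Mme was called. These were 2 of 14 other settings, and Mme was called in 0 of 10 fits without 1 library. Over all 24 alternatives the AA vs. C value ranged from 0.10 to 1.24, with a limma adjusted p of up to 0.788. The M vs. C difference was −0.19 (interval −0.70 to 0.33, limma adjusted p = 0.706). Podocytes also carry neprilysin, and of 6 podocyte markers 2 were higher and 4 lower in AA vs. M, with a median log2 fold change of −0.11, and 1 was called, against 12.8% of all genes.

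Enpep had 1.96, 2.22, 1.71, 1.76 and 1.29 FPKM in C mice 1 to 5. M mice 1 to 5 had 0, 0.244, 0.767, 1.04 and 1.81. In the AA mice it was 1.76, 1.34, 0.524, 1.07 and 1.79. Of the M kidneys, 4 were below every control and M mouse 5 lay among the controls, and the AA values overlapped both other groups. None of the log2 fold changes passed, at −0.74 in M vs. C (interval −1.41 to −0.068, limma adjusted p = 0.261), 0.44 in AA vs. M (interval −0.26 to 1.14, limma adjusted p = 0.386) and −0.30 in AA vs. C (interval −0.77 to 0.17, limma adjusted p = 0.288). The M vs. C value was −1.09 with M mice 1 to 3 alone (limma adjusted p = 0.0162) and −0.21 with M mice 4 and 5 alone.

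Atp6ap2, the (pro)renin receptor, had its highest values in M mice 1 to 3 and in AA mouse 2. It was at 8.03, 3.50, 9.26, 5.89 and 5.06 FPKM in the C mice. M mice 1 to 5 had 14.0, 15.9, 16.8, 7.53 and 2.94, and the AA mice had 10.4, 16.1, 7.64, 9.11 and 9.68. M mouse 5 was below all controls and M mice 1 to 3 above them. Its M vs. C log2 fold change was 0.63 (interval −0.30 to 1.55, limma adjusted p = 0.492), and it was 1.23 with M mice 1 to 3 (limma adjusted p = 0.0173) and −0.28 with M mice 4 and 5. AA vs. M gave 0.052 (interval −0.85 to 0.96, limma adjusted p = 0.951) and AA vs. C 0.68 (interval 0.088 to 1.27, limma adjusted p = 0.0687). With TPM the M vs. C and AA vs. C values turned to −0.32 and −0.32. Of its 31-base words, 7.38% occur in other genes, chiefly in Gm36448.

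Each member was also set beside the mean log2(FPKM + 1) of the proximal tubule markers in the same library. For Agt this difference had a median of −1.71 in C kidneys (−2.46 to −1.33), −1.22 in M kidneys (−2.02 to −0.66) and −1.79 in AA kidneys (−2.49 to −0.74), so that the groups overlapped, unlike for Agt alone. Each of the other 6 members had a higher median of this difference in both adenine-fed groups than in the C group. The marker mean itself had a median of 5.13 in C, 2.49 in M and 2.62 in AA kidneys. Ace, Enpep and Mme, at C means of 1.66, 1.47 and 0.87, could not fall as far before reaching 0. Their higher difference was thus fixed by the scale, and nothing is drawn from it. A library listed at 0 returns only the marker mean with its sign changed. Medians of −3.63, −1.88 and −2.15 were found for Ace in C, M and AA kidneys, and −2.36, −0.95 and −0.31 for Ren1. For Agtr1a they were −2.13, 0.76 and 0.89. With mitochondrial genes left out and libraries scaled by their other reads, Agt and Ace kept their calls in AA vs. C. Beyond that setting, the part of the mitochondrial share that moved with the groups in the results for Agt and Ace was not tested. The part of the change in tubule markers was not tested either.

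**Figure D3:**
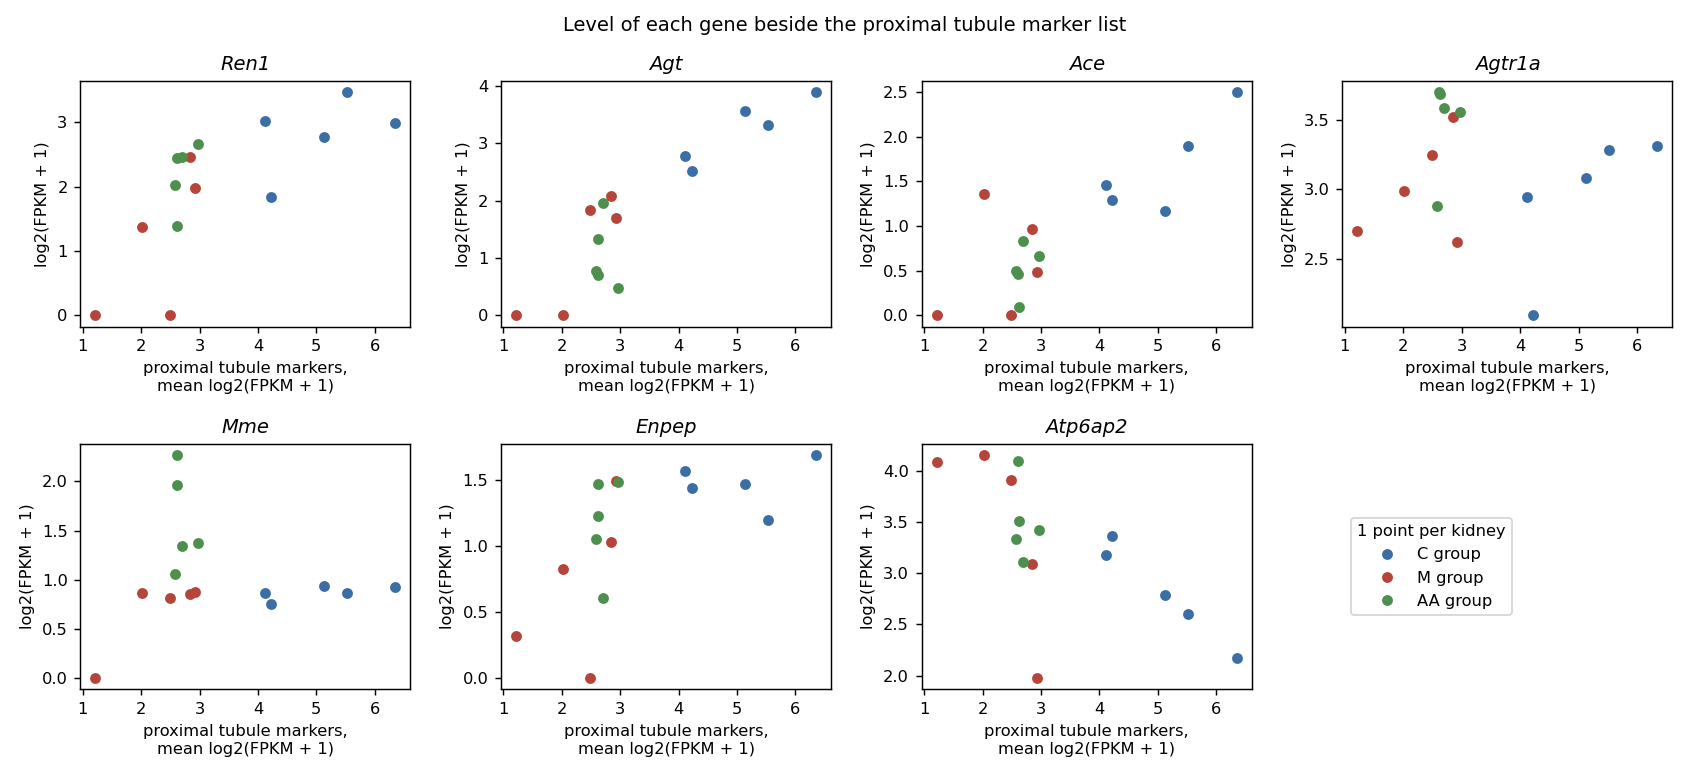
Level of each gene, as log2(FPKM + 1), against the mean log2(FPKM + 1) of 15 proximal tubule markers in the same kidney. Each point is 1 kidney, colored by group (C, M, AA, 5 each), and axes differ between panels. Control kidneys lie to the right, with marker means of 4.11 to 6.35. The Agt values fall from the control kidneys to the M and AA kidneys along with the markers, whereas on this scale Agtr1a and Atp6ap2 do not. Mme, at a C mean of 0.87, could not fall as far as the markers.

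The wider pathway was examined through 19 further genes of peptidases, receptors and the kallikrein Klk1, of which 12 could be tested in each comparison with the M group and 13 in AA vs. C. In M vs. C 1 was called (1.38% of all genes) and in AA vs. C 1 (19.8%). In AA vs. M 0 were called (12.8%), with 4 of 12 at an unadjusted p under 0.05, where 32.1% of all genes were. There limma voom also called 0, against 8.55% of all genes. The medians were −0.061 in M vs. C, 0.0079 in AA vs. M and 0.16 in AA vs. C. The called gene was Klk1 both times, tissue kallikrein, which releases kinins and is made in the distal nephron. It ranged from 183 to 852 FPKM in C kidneys, from 3.90 to 37.5 in M kidneys and from 13.6 to 30.8 in AA kidneys. Every adenine-fed kidney was thus far below every control. Its log2 fold change was −4.58 in M vs. C (standard error 0.62, limma adjusted p = 0.0131) and −4.14 in AA vs. C (standard error 0.41, limma adjusted p = 0.000112), and AA vs. M gave 0.44 (limma adjusted p = 0.627). As 40.5% of its 31-base words occur in other genes of the kallikrein family, chiefly Klk1b5, reads could have been split between them, and the value is uncertain to that extent. Markers of the loop, distal tubule and collecting duct summed to 111 to 505 FPKM in C, 21.3 to 92.2 in M and 42.0 to 74.6 in AA kidneys, and their part in the Klk1 result was not tested.

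Among 10 genes that act on renin release, 1 was called in AA vs. M (Adora1) and 1 in AA vs. C (Adcy6), a smaller share than the 12.8% and 19.8% of all genes. Adora1, the adenosine receptor of the arteriole and macula densa pathway, was at 0, 0, 0, 0.955 and 0.914 FPKM in M mice 1 to 5 and at 1.35 to 3.14 in the AA group. It was higher in AA than in M kidneys by 1.29 on the log2 scale (standard error 0.31, limma adjusted p = 0.0132), and the C values, 0.133 to 2.46, overlapped both groups. The M values at 0 came from M mice 1 to 3, the libraries with few genes above 0. No fit of Adora1 with M mice 4 and 5 alone is given, so how far the call rests on those zeros is not known. Adora1 shares 20.1% of its exon bases with Mybph on the opposite strand, which leaves the source of those reads open. Adcy6, an adenylyl cyclase, ranged from 4.04 to 12.5 FPKM in C, from 0.310 to 8.49 in M and from 0.883 to 1.90 in AA kidneys. Adcy6 fell by 1.82 in AA vs. C (standard error 0.27, limma adjusted p = 0.000659). Its antisense neighbour Gm29331 covers 8.92% of its exon bases. Calls by limma were 0 of 10 in M vs. C (1.38% of all genes), where 3 had an unadjusted p under 0.05 (16.5%). The medians over the list were −0.19 in M vs. C, 0.22 in AA vs. M and 0.13 in AA vs. C.

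Genes of the aldosterone response, which acts downstream of angiotensin II in the distal nephron, were called lower for 1 of 6 in M vs. C (1.11% of all genes called lower) and 4 of 6 in AA vs. C (9.61%). Nr3c2 and Scnn1g were called in none of the 3 comparisons. In AA vs. M limma called 0 of 6 (12.8% of all genes), and 0 had an unadjusted p under 0.05 (32.1%). The medians over the list were −1.31 in M vs. C, 0.24 in AA vs. M and −1.36 in AA vs. C. Hsd11b2, the enzyme that shields the mineralocorticoid receptor from glucocorticoids, ranged from 5.62 to 36.1 FPKM in C, from 0 to 2.69 in M and from 0 to 3.40 in AA kidneys. Its log2 fold change was −2.84 in M vs. C (standard error 0.51, limma adjusted p = 0.0233) and −2.36 in AA vs. C (standard error 0.50, limma adjusted p = 0.00426). The sodium channel subunit Scnn1a fell by 1.62 in AA vs. C (standard error 0.38, limma adjusted p = 0.00725), from 2.34 to 11.9 FPKM in the C group to 0.498 to 2.31 in the AA group. A second subunit, Scnn1b, fell by 1.85 (standard error 0.46, limma adjusted p = 0.00917), from 1.71 to 15.1 to 0 to 1.39 FPKM. Sgk1, a kinase induced by aldosterone, fell by 1.10 (standard error 0.36, limma adjusted p = 0.0325), and its values overlapped, at 3.09 to 19.0 and 1.72 to 3.89 FPKM. The part of the distal markers given above in these falls was not tested.

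The genes most like each member were those with the highest Pearson r of log2(FPKM + 1) over the 15 libraries, among 6823 protein-coding genes above 0 in all of them. These libraries share group, depth and mitochondrial content, so r is a description. Agt was most like Hint2 (r = 0.955) and Aldh1l1 (0.951), a folate enzyme. For Ren1 they were Smarcb1 (0.872) and Sil1 (0.862), and for Ace Urgcp (0.916) and Gcdh (0.903). Agtr1a went with Fbln5 (0.896), an elastic fiber protein, and Cyp1b1 (0.883). Mme was most like Zkscan1 (0.916) and Macrod2 (0.912), and Enpep like Lsm14b (0.896) and Tmem258 (0.873). Atp6ap2 was closest to Ciao2a (0.940) and to Lamp1 (0.932), a protein of the lysosomal membrane. Median FPKM of Hint2 was 43.9, 7.50 and 5.97 in C, M and AA kidneys, and that of Fbln5 was 53.3, 66.5 and 104.5.

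**Figure D4:**
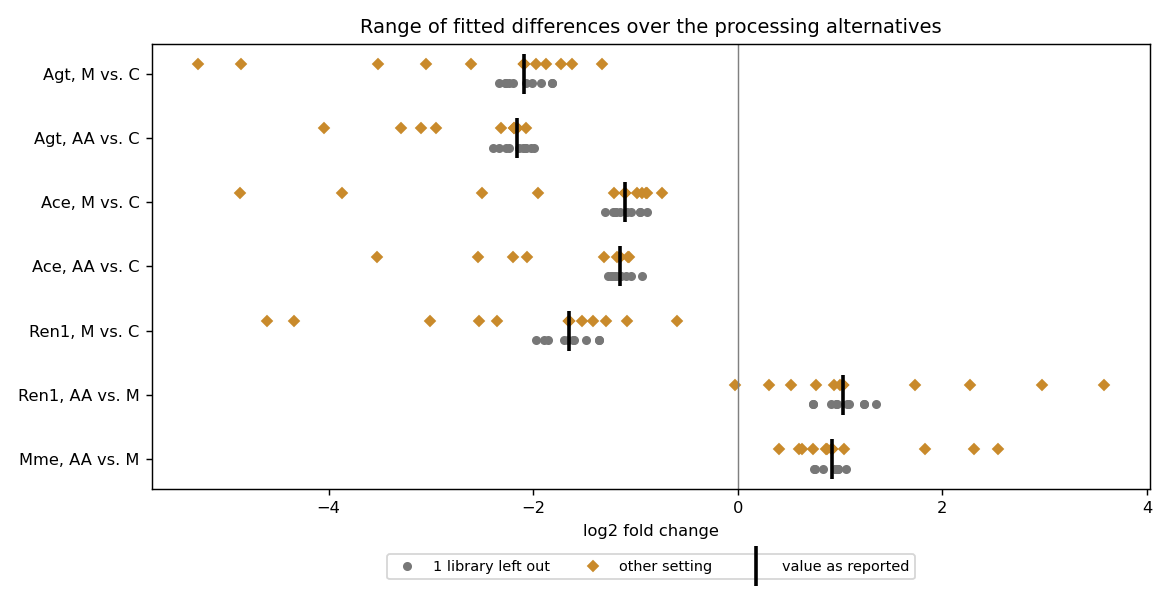
Log2 fold changes of the members with the largest differences under the processing alternatives. The black line is the value as reported, grey points are fits without 1 library (10 each) and orange diamonds are other settings (14 for AA vs. C and 16 for the others). Agt and Ace in AA vs. C stay below 0 in every fit, at −4.05 to −1.99 and −3.52 to −0.94, and Ren1 in AA vs. M reaches from −0.028 to 3.58.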

How the data were processed

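The deposited file holds 1 FPKM value per gene and kidney for 15 kidneys, computed by the authors from poly-A RNA read in paired ends of 150 bases. Per the labels and the submitters' processing notes, reads were cleaned with fastp, aligned to mm10 with HISAT2 2.0.5 and counted with featureCounts 1.5.0-p3. How strand was set and which annotation was used is not given in the sources used here. What the divisor of FPKM counted is not given. Recovered from the steps, it was not the read total with mitochondrial reads included. It was 11604278 against a total of 17895235 in M mouse 1, and 32117618 against 18165593 in C mouse 1. Per read outside the mitochondrial genome it was 3.19 to 5.03 over the 15 libraries. How mitochondrial reads entered it was not tested. Here 54495 of 54532 identifiers were found in GENCODE M21. The labels number separate mice, 5 per group, and say nothing of batches.

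Each comparison used limma 3.58.1 in R 4.3.3 (lmFit, then eBayes with its trend option) on FPKM as log2 with a pseudocount of 1, the 10 libraries compared, no block and genes above 0 in at least 5 of them, adjusted by Benjamini-Hochberg over all genes tested. Reads were recovered as whole multiples of the step of each library (97.6 to 98.9% of values of up to 20 reads were whole within 0.02), and no counting interval was computed from them. Shared sequence was measured over 31-base words, as the percentage that other genes also hold. Other steps used Python 3.11.15 with pandas 2.3.3, numpy 2.4.6, matplotlib 3.10.9 and scipy 1.17.1, and the fit was tested on simulated data.

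Genes named are the 7 members in every library, genes of the wider renin-angiotensin, renin release and aldosterone lists that passed in any comparison, the 2 protein-coding genes most like each member, and markers that stand beside a result. Gapdh, Xist, Ddx3y, Eif2s3y, Kdm5d, Uty, Agtr1b and Agtr2 were added once their values had been seen. The members and lists were chosen with earlier results of these data known. Alternatives were other pseudocounts, filters and scalings, fits of all 15 libraries, library weights, a replicate block, no trend, protein-coding genes, limma voom on recovered reads, subsets of M mice and each library left out. Lists of leukocyte (1 of 6 called in M vs. C, 0 in AA vs. M and 2 in AA vs. C) and mast cell markers (0 called, at most 2 of 6 testable) were also scored. The shares of all genes called in these comparisons were 1.38%, 12.8% and 19.8%. A planned comparison of a gene ratio is not reported here.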

Additional observations from a re-analysis of the deposited data

Results flagged for a closer look

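A library stood far from the others of its group for 2 members, among 21 groups of 5 kidneys examined, where chance gives about 1 in 20. For Agtr1a in the AA group, AA mouse 4 was at 6.35 FPKM and the others at 10.8 to 12.0, a gap of 0.823 of the range of log2(FPKM + 1) (Dixon's critical value is 0.71). For Mme in the M group, M mouse 2 was listed at 0 and the others lay at 0.762 to 0.841 FPKM, a gap of 0.928 of the range. M mouse 2 is one of the 3 libraries with few genes above 0. Without it the Mme log2 fold change in M vs. C was −0.016 (limma adjusted p = 0.983).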

How the results depend on the processing

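Agt and Ace in AA vs. C kept their direction in every alternative, and Agt also its call. Same-numbered mice did not deviate together (correlations of −0.13 to 0.22), so the numbers pair nothing. With a replicate block, 0 members were called in M vs. C (Agt limma adjusted p = 0.0662, and 152 genes in all), and for the other comparisons, AA vs. M and AA vs. C, the block changed no other call of a member (2217 and 4345 genes in all). Causes of the changes listed here were not tested.

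Members called in M vs. C numbered 0 with a pseudocount of 0.1 or 0.01, genes above 0 in any library, library weights or no intensity trend (at most 1.24% of all genes). They also numbered 0 with M mice 4 and 5 alone, where 0 of 20868 genes passed and 2489 had an unadjusted p under 0.05. They numbered 3 with TPM (7.61% of all genes) and with voom (8.59%) and 4 with M mice 1 to 3 alone (19.9%). With 1 library left out they numbered 0 to 1 (0.02 to 4.88%). In AA vs. M they numbered 2 with M mice 1 to 3 alone (Ren1 and Mme, against 22.3% of all genes). In AA vs. C they numbered 3 with pseudocounts of 0.1 and 0.01 (Mme added, against 34.1% and 29.5% of all genes). They numbered 4 with TPM (31%) and with voom (39.1%) and 1 to 2 with 1 library left out (16.4 to 23.1%). The wider list had 2, 0 and 5 calls in M vs. C with voom, M mice 4 and 5 and M mice 1 to 3 (8.59%, 0% and 19.9% of all genes). With 1 library left out it had 0 to 1 (0 without C mouse 5, against 0.02%). In AA vs. M it had 1 with quantile normalization (11.5% of all genes), centring (14.2%) or all 15 libraries in 1 fit (14.7%). It had 2 with M mice 1 to 3 (22.3%), and 0 to 2 with 1 library left out (2 without M mouse 4, against 14.2%). In AA vs. C it had 3 and 2 with pseudocounts of 0.1 and 0.01 (34.1% and 29.5% of all genes) and 5 with TPM (31%) and with voom (39.1%).

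Some directions turned, among them those of Ren1 in AA vs. M and Atp6ap2 in M vs. C and AA vs. C. In M vs. C Agtr1a was −0.84 with TPM, −0.71 with voom and −0.14 to 0.17 with 1 library left out. Atp6ap2 was −0.32, −0.20 and −0.28 with TPM, voom and M mice 4 and 5, and Mme 0.058 and 0.17 with quantile normalization and centring. In AA vs. M Agt was 0.56 and 1.76 with pseudocounts of 0.1 and 0.01, 1.27 with voom, 0.44 with M mice 1 to 3 and −0.35 to 0.17 with 1 library left out. Ace was 0.30, 1.33, 1.39 and 0.057 in the same settings and −0.19 to 0.15 with 1 library left out. Atp6ap2 was −0.0026 with TPM, −0.063 with quantile normalization, −0.46 with centring, −0.031 without mitochondrial genes, −0.55 with M mice 1 to 3 and −0.31 to 0.23 with 1 library left out. Centring gave −0.049 for Agtr1a and −0.078 for Enpep, and M mice 4 and 5 gave −0.091 for Enpep and −0.028 for Ren1. In AA vs. C Agtr1a was −0.46 and −0.32 and Atp6ap2 −0.32 and −0.17 with TPM and voom.

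Over all genes, the 291 calls of M vs. C became 33 with genes above 0 in any library, 110 with a pseudocount of 0.01, 188 with library weights, 448 with a mean FPKM of at least 1, 786 with all 15 libraries, 1609 with TPM, 1816 with voom, 3404 with M mice 1 to 3 and 4 to 954 with 1 library left out. The 2533 of AA vs. M became 422 with TPM, 745 with protein-coding genes alone and 1656 with M mice 4 and 5, and the 4346 of AA vs. C became 7474 with a pseudocount of 0.1, 6785 with TPM, 2672 with protein-coding genes and 8571 with voom. TPM moved the median log2 fold change to −0.58 (M vs. C) and −0.39 (AA vs. C), and centring to 0.24 (M vs. C) and −0.35 (AA vs. M). With a mean FPKM of at least 1, Mme in M vs. C and Ace in AA vs. M were filtered out and gave no value. Values at 0 in M mice 1 to 3, and 5 to 82 reads for Agt and Ace in the AA group, limit the precision.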
